A study of Mus musculus with 18 samples.

Results

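Cd44, S100a10, S100a11, Crip1, Lgals1, Capg, Anxa2 and Anxa6 are 8 genes known for higher transcript levels in memory than in naive T cells. They were taken as a list of names from general knowledge of T cell memory, not from the values. All 8 were among the 15137 gene symbols of the deposited expression table, and all 8 passed the minimum level, 10 on the linear scale in at least 3 libraries, as did 10877 genes. Each of the 8 was above it in all 18 libraries, so none was let in by a single high group.

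The genes were followed across 18 RNA sequencing libraries of naive CD4+ T cells from the spleen of C57BL/6J mice, in 6 groups of 3 libraries. Cells came from control mice or from Creld1 conditional knockout mice, written cKO below, in which a CD4-Cre transgene drives the deletion. This transgene acts in the whole T cell lineage from the CD4-expressing thymocyte on, so CD8 T cells and regulatory T cells of these mice carry the deletion too. The genotype of the controls, including whether they carried the Cre, is not given in the labels used here, and neither are age and sex. In each genotype the cells were profiled fresh, after 8 h of culture without stimulation, or after 8 h of culture with antibodies to CD3 and CD28 at 1 µg/ml, which trigger the T cell receptor and give co-stimulation through CD28. The sort kept CD3+ CD4+ cells of a naive surface phenotype, negative for CD25 and CD44. Cd44 protein was therefore itself a criterion of the sort, for the cells of every group alike. The labels do not tie the 3 libraries of a group to separate animals, so p-values measure the spread between libraries, which may be technical.

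Memory T cells differ from naive cells in adhesion, migration and speed of response, and a part of that difference lies in a small set of membrane and cytoskeletal proteins. CD44 is a receptor for hyaluronan in the matrix and the standard surface marker of antigen-experienced mouse T cells. S100 proteins are small calcium-binding proteins, and annexins bind acidic membrane lipids in the presence of calcium; S100A10 forms a complex with annexin A2, and S100A11 with annexin A1. Galectin-1, from Lgals1, binds beta-galactosides on glycoproteins. CapG caps the barbed ends of actin filaments, and CRIP1 is a small LIM-domain protein. Annexin A6 is abundant in lymphocytes.

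Facts of the whole series frame these values. The deposited values were normalized and on a log2 scale, and a library's values summed on the linear scale to 6782465 to 7419367. They carry no read counts, so depth is unknown. Creld1 itself averaged 4.58 in control and 4.10 in cKO fresh libraries, 5.03 and 4.03 without stimulation, and 4.74 and 4.38 with stimulation. It did not pass the test over all genes in any of the 3 conditions, and its groups were separate in the unstimulated condition only. Markers of naive CD4 T cells summed to between 72841 and 90448 on the linear scale, and all 15 were above the minimum level. A list of 26 memory and effector markers, which contains the 8 genes, summed to between 5579 and 7829, and 18 of the 26 were above that level. The sums were 750 to 1173 for regulatory T cell markers, with 8 of 8 above the minimum level. They were 128 to 274 for CD8 T and NK cells (2 of 9) and 141 to 204 for myeloid cells (2 of 7). B cell markers summed to 23.6 to 43.2 (1 of 6). Libraries differed in how expression followed the GC content of transcripts. This GC slope (the change in a library's log2 values per SD of transcript GC content) was 0.167 in cKO fresh replicate 3, against -0.202 and -0.326 in the other cKO fresh libraries. In the unstimulated condition it did not overlap between genotypes, running from 0.067 to 0.252 in control and from -0.194 to -0.069 in cKO libraries. In bulk RNA, fewer cells with a transcript and less transcript per cell cannot be told apart.

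Per kilobase of annotated exon, the 8 genes covered a wide span of levels in these naive cells. S100a10 had the highest mean, 9.54 on the log2 scale per kilobase, followed by S100a11 at 9.30 and Anxa6 at 9.17. These 3 lay in the 97.5th, 96.9th and 96.5th percentile of tested genes. Crip1 followed at 7.37, Lgals1 at 6.72 and Capg at 6.34. Cd44 at 4.79 and Anxa2 at 4.07 were the lowest, in the 32.3rd and 22.9th percentile. The 3 leading genes lie close to each other, and so do Lgals1 and Capg, by less than the ranges of single genes over the 18 libraries, which ran from 0.77 for S100a10 to 2.01 for Crip1. Exon length was the union of all annotated transcripts, which understates the level of a gene expressed mainly as a short transcript. The division also takes the deposited values to grow with transcript length, which is not stated for them. Before it the order was another, with Anxa6 highest at 10.72, then S100a10 at 9.82, Crip1 at 8.56 and S100a11 at 8.33. Capg had 7.68, Cd44 7.55, Lgals1 6.58 and Anxa2 5.97.

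In GRCm38 the genes lie on 7 chromosomes. Cd44 (ENSMUSG00000005087.17) lies on chromosome 2 from 102811141 to 102901665 on the minus strand, Anxa2 on chromosome 9 from 69453620 to 69491795 and Anxa6 on chromosome 11 from 54979108 to 55033445. Crip1 lies on chromosome 12 from 113146316 to 113153879, Lgals1 on chromosome 15 from 78926725 to 78930465 and Capg on chromosome 6 from 72544391 to 72562983. S100a11 (chromosome 3, 93520488 to 93526287) and S100a10 (93555080 to 93564643) are neighbours on the plus strand, 28792 bases apart, with 1 processed pseudogene, Gm29950, and 0 protein-coding genes wholly between them. Their values across libraries, described below, were the most alike among the 8 genes.

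Promoters are shown for Cd44 and S100a11, whose transcripts moved in opposite directions in culture. RefSeq promoter sequences on GRCm38.p6 matched 5 of the 8 genes (Cd44, S100a11, Capg, Anxa2 and Crip1). S100a10, Lgals1 and Anxa6 had no entry. The 250 bases before the annotated start are printed 5′ to 3′ on the gene's strand, at chr2:102901666-102901915 (minus strand) for Cd44 and chr3:93520246-93520495 (plus strand) for S100a11. Capitals mark matches, on either strand, to the AP-1 motif TGANTCA, the GC box GGGCGG and the TATA box TATAAA.
Cd44: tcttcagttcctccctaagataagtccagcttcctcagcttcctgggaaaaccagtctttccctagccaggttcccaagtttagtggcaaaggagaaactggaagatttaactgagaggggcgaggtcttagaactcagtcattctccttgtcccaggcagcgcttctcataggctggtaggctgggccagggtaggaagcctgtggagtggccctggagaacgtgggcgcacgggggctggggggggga
S100a11: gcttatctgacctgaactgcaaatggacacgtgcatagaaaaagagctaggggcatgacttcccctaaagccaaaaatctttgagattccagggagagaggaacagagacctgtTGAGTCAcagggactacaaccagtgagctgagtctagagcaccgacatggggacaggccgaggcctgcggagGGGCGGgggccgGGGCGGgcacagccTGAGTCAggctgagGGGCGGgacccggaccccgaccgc
The S100a11 promoter held 2 AP-1 motifs, with their first bases at -136 and -38 from the start, and 3 GC boxes at -64, -52 and -24. Anxa2 held 1 AP-1 motif at -95, 3 GC boxes and 1 TATA box at -17, and Crip1 held 3 GC boxes. Cd44 and Capg had 0 matches to any of the 3 motifs in this window. Positions count from the RefSeq start, which for some genes is not the gene start given above. The windows of Crip1 (113151762 to 113152011) and Capg (72549397 to 72549646) lie inside the gene spans given there. Those of Anxa2 (69453433 to 69453682) and S100a11 end inside them. Of 32851 promoters of the same length, 6.75% held the AP-1 motif, 32.7% the GC box and 12.4% the TATA box. These matches describe letters in the window, and a link between them and the direction in culture was not tested.

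Culture without stimulation was compared with fresh cells first. This comparison holds everything that differed between fresh cells and 8 h of culture without antibody, and its parts were not tested. The 8 genes did not move as a block. Cd44 transcripts fell, those of both S100 genes rose, Anxa6 fell, and the others were less clear. In control cells 5 of 8 genes passed the test (limma, adjusted p under 0.05 over all tested genes), 3 higher and 2 lower, beside 29% of all tested genes (14.9% higher, 14.1% lower). Of the 8, 4 passed in cKO cells, 2 in each direction, beside 22.1% of all tested genes (10.7% higher, 11.4% lower). Fresh and cultured libraries did not overlap for 7 of the 8 genes in control and 4 in cKO cells, and for 48.6% and 31.9% of all tested genes. The median difference of the 8 genes was 0.41 in control and 0.21 in cKO cells, beside medians of 0.038 and -0.022 over all tested genes.

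Cd44 had log2 values of 8.62, 8.31 and 8.25 in the fresh control libraries and 7.33, 6.95 and 6.83 after unstimulated culture. In cKO cells they were 8.42, 8.50 and 8.05 fresh and 7.12, 7.33 and 7.02 after culture. Every fresh library was above every cultured library in both genotypes. Cd44 transcripts were thus 2.55-fold lower after culture in control (log2 difference -1.35 ± 0.18 SE, adjusted p = 5.31e-05) and 2.24-fold lower in cKO cells (-1.16 ± 0.18, adjusted p = 0.000223). Stimulated cultures gave the same order, with 7.26, 6.89 and 7.46 in control and 7.32, 7.26 and 6.94 in cKO libraries. Against fresh cells these were 2.28-fold lower in control (-1.19 ± 0.18, adjusted p = 0.000205) and 2.22-fold lower in cKO cells (-1.15 ± 0.18, adjusted p = 0.000234). Each of these 4 differences passed the test with the same sign under all 18 alternatives run for it, including each single library left out.

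S100a10, the partner of annexin A2, moved the other way. Its values were 9.33, 9.42 and 9.44 in fresh control libraries and 9.94, 10.06 and 10.10 after unstimulated culture. The cKO libraries had 9.46, 9.36 and 9.64 fresh and 10.01, 10.03 and 9.97 after culture. Fresh and cultured libraries did not overlap, and the spread within a group was small, with a pooled SD of 0.079 that only 5.91% of tested genes undercut. The rise was 1.55-fold in control (0.64 ± 0.08, adjusted p = 2.10e-05) and 1.43-fold in cKO cells (0.52 ± 0.08, adjusted p = 0.000156). With stimulation, S100a10 was 1.49-fold (0.57 ± 0.08, adjusted p = 6.43e-05) and 1.43-fold (0.52 ± 0.08, adjusted p = 0.000141) above fresh cells in control and cKO. All 4 differences passed with the same sign under all 18 alternatives.

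S100a11, which binds annexin A1, followed its neighbour. Fresh control libraries had 7.83, 7.99 and 7.99, and unstimulated control cultures 8.35, 8.48 and 8.47. Fresh cKO libraries had 7.99, 7.95 and 8.20, and their unstimulated cultures 8.55, 8.62 and 8.66. Again no cultured library reached down to the fresh ones. The rise was 1.41-fold in control (0.49 ± 0.09, adjusted p = 0.000563) and 1.48-fold in cKO cells (0.57 ± 0.09, adjusted p = 0.000195). Stimulated cultures differed from fresh cells by 0.50 ± 0.09 in each genotype (adjusted p = 0.000648 in control and 0.00058 in cKO). The last of these did not pass when only the compared groups were fitted (adjusted p = 0.0525), while the other 3 passed under all 18 alternatives.

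Anxa6, the annexin that lymphocytes make in quantity, fell. Fresh control libraries had 11.10, 11.31 and 11.32, unstimulated control cultures 10.69, 10.82 and 10.81, and stimulated control cultures 10.40, 10.49 and 10.45. In cKO cells the values were 10.88, 10.60 and 11.39 fresh, 10.59, 10.57 and 10.20 unstimulated, and 10.46, 10.42 and 10.41 stimulated. In control cells the 3 conditions did not overlap, and in cKO cells the lowest fresh value lay just above the highest cultured one (10.60 against 10.59). Unstimulated culture lowered Anxa6 1.38-fold in control (-0.47 ± 0.15, adjusted p = 0.0277) and 1.41-fold in cKO cells (-0.50 ± 0.15, adjusted p = 0.0244). Stimulated culture lowered it 1.73-fold (-0.79 ± 0.15, adjusted p = 0.0014) and 1.44-fold (-0.52 ± 0.15, adjusted p = 0.0162). The control call after stimulation held under all 18 alternatives. The control call without stimulation was lost on leaving out any of 5 libraries (all but control fresh replicate 1, adjusted p from 0.0557 to 0.0806). In cKO cells the unstimulated call was lost without cKO fresh replicate 3 (-0.28, adjusted p = 0.0686) or cKO unstimulated replicate 3 (-0.37, adjusted p = 0.124), and the stimulated call without cKO stimulated replicate 3 (-0.51, adjusted p = 0.0517).

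Capg, the actin-capping gene, was higher in culture, with a wide spread. Control libraries had 7.05, 7.48 and 7.55 fresh, 7.78, 8.33 and 8.38 unstimulated, and 7.57, 8.32 and 8.11 stimulated. The cKO libraries had 6.82, 6.45 and 7.68 fresh, 7.50, 7.58 and 7.05 unstimulated, and 8.06, 8.36 and 8.17 stimulated. The fresh cKO replicate 3 was thus above all 3 unstimulated cKO cultures. Capg rose 1.75-fold in unstimulated control culture (0.81 ± 0.27, adjusted p = 0.0376) and 2.31-fold in stimulated cKO culture (1.21 ± 0.27, adjusted p = 0.00438). The differences of 0.39 ± 0.27 in unstimulated cKO culture (adjusted p = 0.345) and 0.64 ± 0.27 in stimulated control culture (adjusted p = 0.121) did not pass. The first of these calls was lost on leaving out any of 5 libraries, all but control unstimulated replicate 1 (adjusted p from 0.0505 to 0.148). Without cKO fresh replicate 3, the unstimulated cKO difference was 0.74 (adjusted p = 0.0259), and without cKO fresh replicate 2 it was 0.13 (adjusted p = 0.780).

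Anxa2, whose product pairs with that of S100a10, had mean values of 5.55 ± 0.20 (SD, n = 3) in fresh control, 6.03 ± 0.15 in unstimulated control and 6.14 ± 0.27 in stimulated control libraries. The cKO means were 5.68 ± 0.44, 6.14 ± 0.24 and 6.26 ± 0.26. Its 4 differences from fresh cells ran from 0.46 to 0.59, of about the size seen for S100a10 and S100a11, with SEs of 0.21 and adjusted p from 0.0509 to 0.137. None of the 4 passed. Without cKO fresh replicate 3, the stimulated cKO difference was 0.66 (adjusted p = 0.0277), and without cKO fresh replicate 1 it was 0.75 (adjusted p = 0.0327). Without cKO stimulated replicate 3 it was 0.71 (adjusted p = 0.047). Leaving out cKO fresh replicate 2 gave 0.33 (adjusted p = 0.274), and the unstimulated cKO difference was then 0.21 (adjusted p = 0.481).

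Lgals1, the galectin-1 gene, was lower in cultured control cells without overlap. Fresh control libraries had 6.92, 7.44 and 7.28, against 6.34, 6.57 and 6.32 unstimulated and 6.20, 6.63 and 6.14 stimulated. The differences of -0.80 ± 0.30 (adjusted p = 0.0577) and -0.89 ± 0.30 (adjusted p = 0.0522) did not pass. In cKO cells fresh libraries ran from 6.14 to 7.76 and overlapped the cultured ones, with differences of -0.67 ± 0.30 (adjusted p = 0.130) and -0.34 ± 0.30 (adjusted p = 0.4). These were -0.21 (adjusted p = 0.501) and 0.12 without cKO fresh replicate 3. Leaving out cKO fresh replicate 2 gave -1.02 (adjusted p = 0.0196) and -0.69 (adjusted p = 0.108).

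Crip1, the LIM-domain gene, varied most. Fresh control libraries had 8.23, 8.97 and 9, and fresh cKO libraries 7.68, 7.40 and 9.42. The cultured libraries all lay between 7.94 and 9.19. Its differences from fresh cells had both signs and did not pass, at 0.33 and 0.035 without stimulation and -0.30 and 0.59 with stimulation, for control and cKO in that order, each with an SE of 0.38 (adjusted p from 0.238 to 0.966). Without cKO fresh replicate 3 the cKO differences were 0.66 (adjusted p = 0.0415) and 1.22 (adjusted p = 0.000673), and without cKO fresh replicate 2 they were -0.35 (adjusted p = 0.552) and 0.21 (adjusted p = 0.736).

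**Figure D1:**
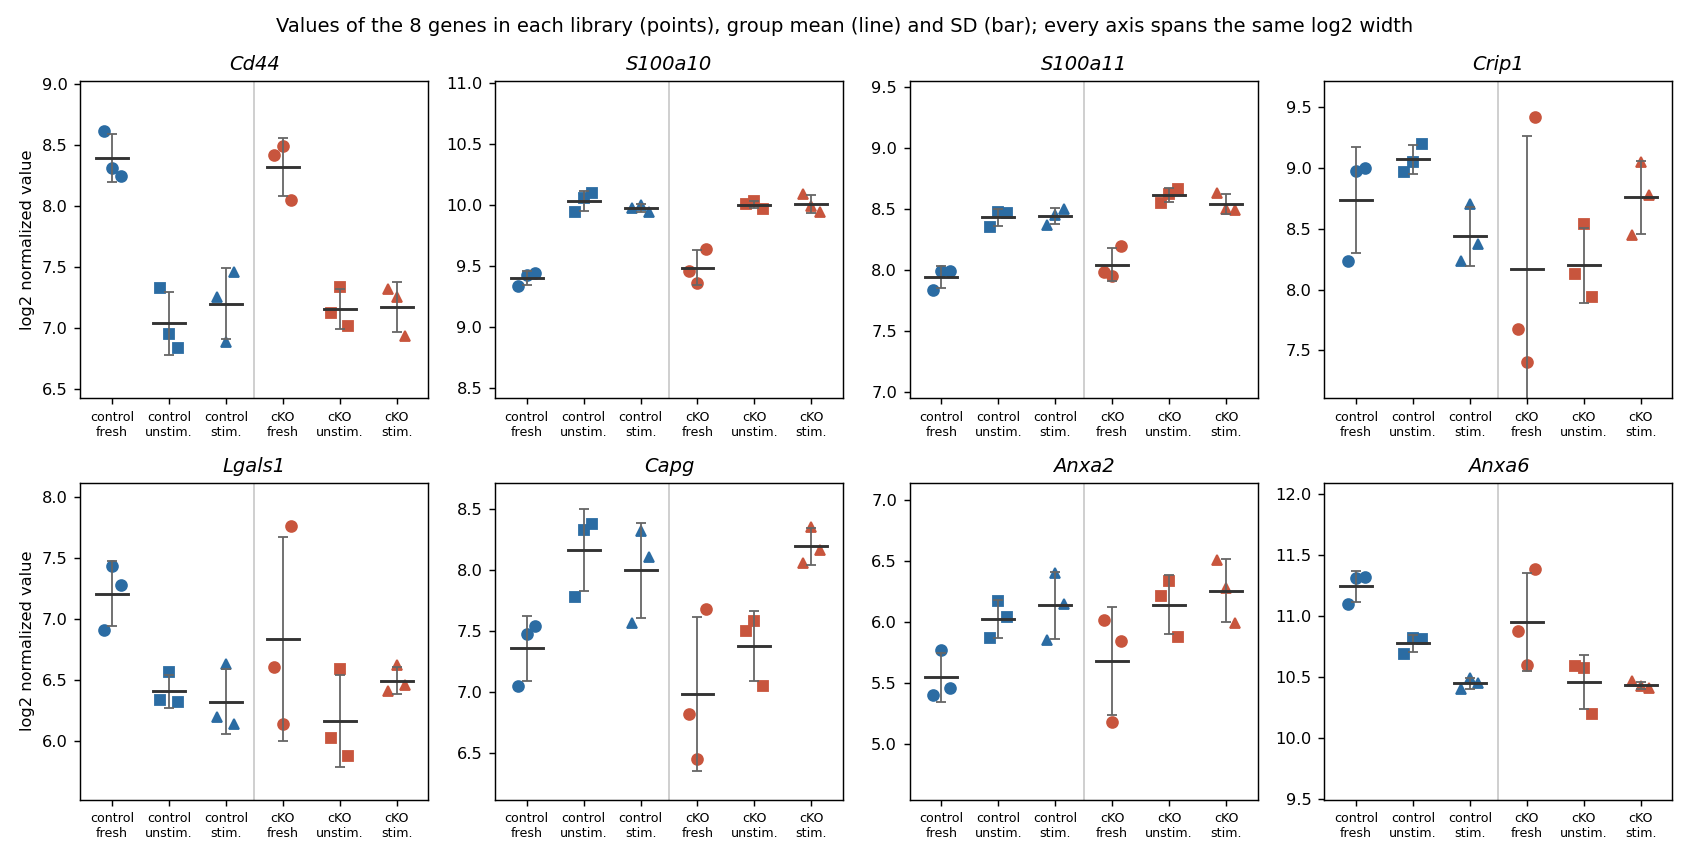
Log2 normalized value of each gene in each library (points), with the group mean (line) and SD (bar, n = 3), for control (blue) and cKO (red) cells fresh, in unstimulated culture and in stimulated culture. Every panel spans the same log2 width. Cd44 and Anxa6 are lower and S100a10 and S100a11 higher in culture, and cKO fresh replicate 3 stands high for Crip1, Lgals1, Capg and Anxa6.

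After stimulated culture, 4 of 8 genes differed from fresh cells in control (Cd44 and Anxa6 lower, S100a10 and S100a11 higher), beside 18.8% of tested genes (9.58% higher, 9.26% lower). In cKO cells 5 of 8 passed, Capg being the fifth, beside 30.3% of tested genes (14.5% higher, 15.7% lower). Libraries did not overlap for 7 genes in control and 5 in cKO cells, and for 34.2% and 32.7% of tested genes. The fresh libraries are shared by the unstimulated and the stimulated comparison of a genotype, so these counts are not independent.

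Stimulation itself was read from the 2 kinds of culture at the same hour. Egr2, an early gene of T cell receptor signalling, was 1.14 ± 0.19 higher in stimulated than in unstimulated control cells and 1.38 ± 0.19 higher in cKO cells (adjusted p = 0.0188 and 0.00304). Irf4, a transcription factor induced with receptor strength, was 1.10 ± 0.22 higher in control (adjusted p = 0.0395) and 1.02 ± 0.22 higher in cKO cells (adjusted p = 0.0643, which did not pass). Of the 8 genes, 0 passed in either genotype by limma. At an unadjusted p under 0.05 there was 1 in each, Anxa6 in control and Capg in cKO cells. Such a p was found for 1233 (11.3%) and 2511 (23.1%) of all tested genes. Of all tested genes 0.349% passed in control and 0.285% in cKO cells, 38 and 31 genes.

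For Cd44 the stimulated minus unstimulated difference was 0.16 ± 0.18 in control (95% interval -0.21 to 0.54) and 0.014 ± 0.18 in cKO cells (-0.36 to 0.39). Both intervals include changes of either sign, and both upper bounds lie below the size of the fall in unstimulated culture. S100a10 and S100a11 had the narrowest intervals, all within -0.25 and 0.19. Crip1 differed by -0.63 ± 0.38 in control cells (adjusted p = 0.495). Anxa6 differed by -0.33 ± 0.15 in the same cells (adjusted p = 0.423). Both genes had groups that did not overlap, as did 20.5% of tested genes. Capg differed by 0.82 ± 0.27 in cKO cells (adjusted p = 0.192), where it was the only one of the 8 without overlap, beside 42.3% of tested genes. Once the fit held the libraries' GC slopes, these 3 differences were -0.11 for Crip1, -0.16 for Anxa6 and 0.27 for Capg. With the replicate block added to that fit they were -0.066, -0.089 and 0.23. Lgals1 and Anxa2 overlapped between the cultures in both genotypes.

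**Figure D2:**
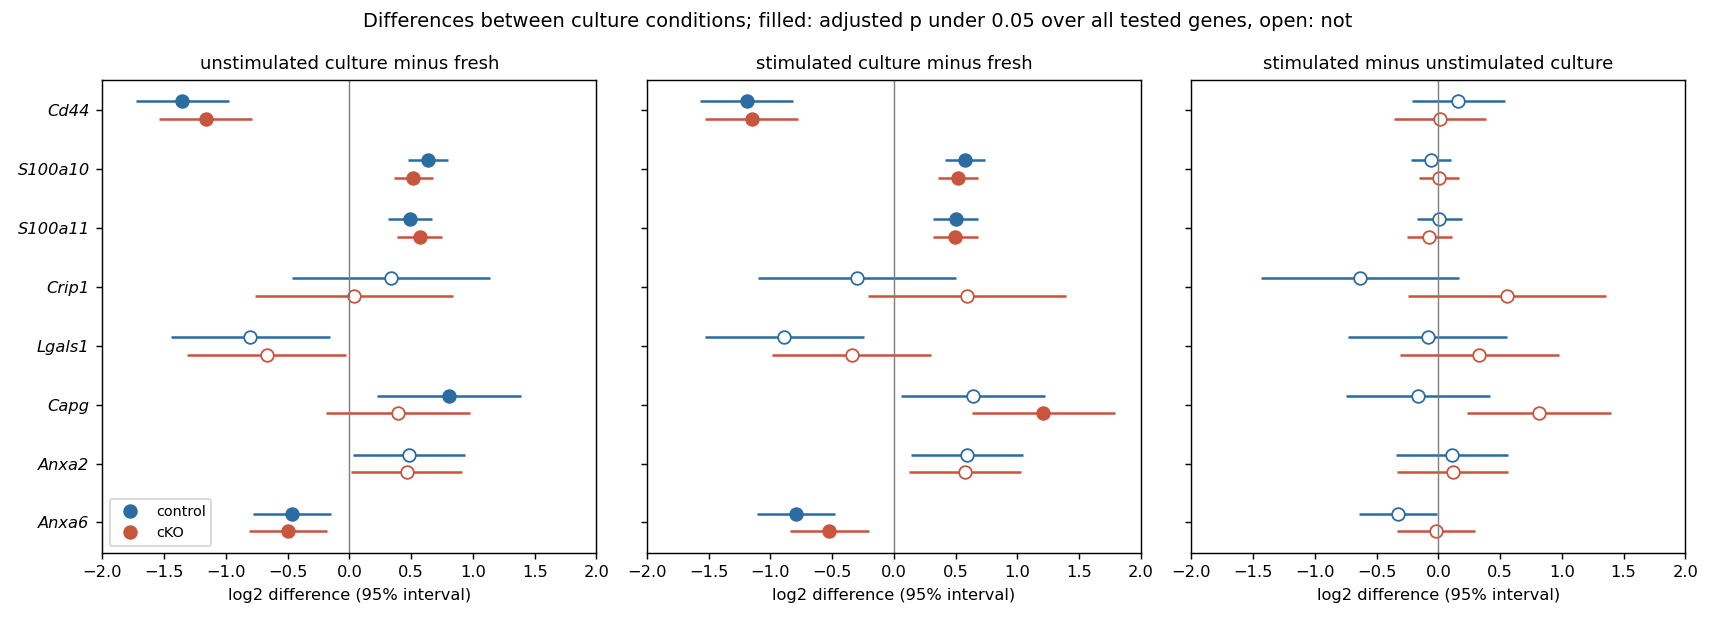
Log2 differences between conditions for control (blue) and cKO (red) cells, with 95% intervals from limma. Filled points passed the test over all tested genes. Cd44, S100a10, S100a11 and Anxa6 are filled in both comparisons with fresh cells in both genotypes, and no point is filled for stimulated against unstimulated culture.

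Genotype was compared within each condition. None of the 8 genes passed in fresh, unstimulated or stimulated cells (0 of 8 in each by limma), where 0.00919%, 0% and 0% of tested genes passed. At an unadjusted p under 0.05 there were 0, 4 and 0 of the 8. Beside them were 429 (3.94%), 3606 (33.2%) and 160 (1.47%) of all tested genes.

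In fresh cells the differences, cKO minus control, ran from -0.57 for Crip1 to 0.13 for Anxa2, with Cd44, S100a10, S100a11, Lgals1, Capg and Anxa6 between them. Crip1 differed by -0.57 ± 0.38, Lgals1 by -0.37 ± 0.30 and Anxa6 by -0.29 ± 0.15 (adjusted p = 0.790 for each). All 8 genes overlapped between the genotypes, while 4.31% of tested genes did not. These values moved with which fresh cKO library was left out. Without cKO fresh replicate 3, Crip1 differed by -1.19 (adjusted p = 0.0343), Lgals1 by -0.84 (adjusted p = 0.0387) and Anxa6 by -0.51 (adjusted p = 0.0377), and these 3 genes passed. The same genes differed by -0.19, -0.026 and -0.11 without cKO fresh replicate 2, and none of the 3 passed. With replicate 3 left out, the 2 fresh cKO libraries had GC slopes of -0.202 and -0.326, beside -0.169 to 0.086 in fresh control libraries, and the number of all genes past the test went from 1 to 1193.

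In unstimulated culture 4 genes were separate between the genotypes. Crip1 had 8.96, 9.05 and 9.19 in control and 8.12, 8.54 and 7.94 in cKO libraries, a difference of -0.87 ± 0.38 (adjusted p = 0.130). Capg differed by -0.79 ± 0.27 (adjusted p = 0.103) and Anxa6 by -0.32 ± 0.15 (adjusted p = 0.148). S100a11 was the one of these 4 genes with higher values in cKO cells, by 0.18 ± 0.09 (adjusted p = 0.15). Of all tested genes, 52.1% were separate between the genotypes in this condition, so 4 of 8 is near the background. Cd44, S100a10, Lgals1 and Anxa2 overlapped. Once the fit held the libraries' GC slopes, the differences were 0.11 for Crip1, -0.091 for Capg, 0.00098 for Anxa6 and 0.29 for S100a11 (adjusted p = 0.658 for S100a11).

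In stimulated cells the differences of the 8 genes ran from -0.029 for Cd44 to 0.32 for Crip1, all 8 overlapped (as did all but 6.19% of tested genes), and 95% intervals reached from -0.48 to 1.12. Cd44, S100a10, S100a11 and Anxa6 had intervals within -0.40 and 0.35 there, so a genotype difference of the size of the culture effect on Cd44 lay outside them.

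Averaged over the 3 conditions, 0 of 8 genes passed, beside 0.0184% of tested genes. An unadjusted p under 0.05 was found for 2 of the 8, beside 901 (8.28%) of all tested genes. S100a11 was 0.13 ± 0.05 higher in cKO libraries, and Anxa6 differed by -0.21 ± 0.09, Crip1 by -0.37 ± 0.22 and Capg by -0.32 ± 0.16 (adjusted p = 0.463 for each). Without cKO fresh replicate 3, Crip1 (-0.58, adjusted p = 0.0339), Capg (-0.44, adjusted p = 0.0407) and Anxa6 (-0.28, adjusted p = 0.0339) passed, with 1613 genes in all against 2 with every library. The 3 differences were -0.25, -0.23 and -0.15 without cKO fresh replicate 2 (adjusted p = 0.769 for each). With every library, the 95% intervals of S100a11 and Anxa6 did not include 0, and those of Cd44, S100a10, Crip1, Lgals1, Capg and Anxa2 did.

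Whether genotype changed the response was tested with interaction terms. For stimulation 0 of 8 genes passed, beside 0.00919% of tested genes. An unadjusted p under 0.05 was found for 2 of the 8, beside 3049 (28%) of all tested genes. Crip1 had an interaction of 1.19 ± 0.53 (adjusted p = 0.171) and Capg of 0.98 ± 0.39 (adjusted p = 0.166), with lower means in stimulated than unstimulated control cells and higher means in stimulated than unstimulated cKO cells. Once the fit held the GC slopes, the terms were -0.10 and 0.069. For culture without stimulation 0 of 8 passed, beside 0% of tested genes. There 0 of the 8 and 545 (5.01%) of all tested genes had an unadjusted p under 0.05. The 8 terms for Cd44, S100a10, S100a11, Crip1, Lgals1, Capg, Anxa2 and Anxa6 ran from -0.41 to 0.19 (adjusted p from 0.850 to 0.993).

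**Figure D3:**
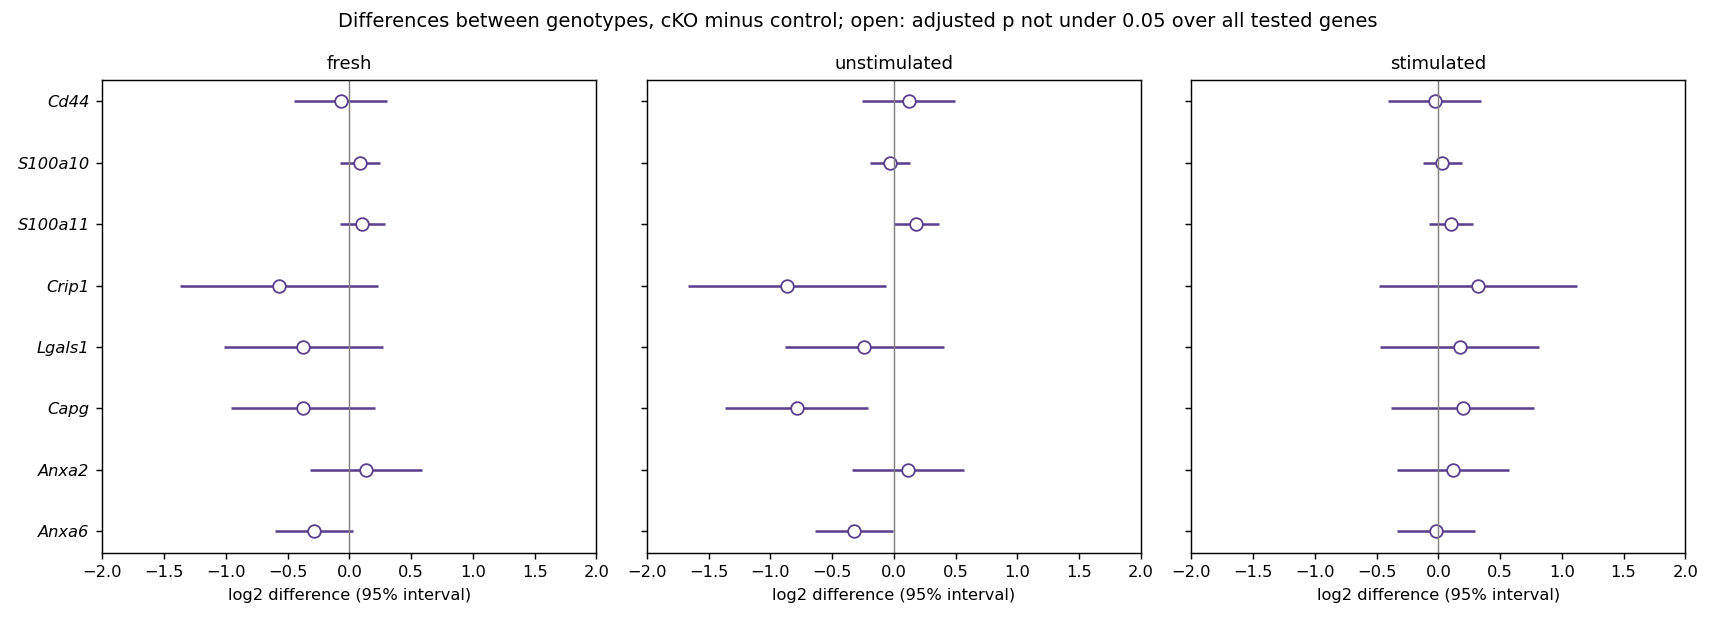
Log2 differences between genotypes, cKO minus control, in fresh, unstimulated and stimulated cells, with 95% intervals from limma. All points are open, as none passed the test over all tested genes. Intervals are narrowest for S100a10 and S100a11 and widest for Crip1.

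The spread between libraries of a group was widest for the 3 genes of highest GC content among the 8. Crip1 had a pooled within-group SD of 0.52, Lgals1 of 0.41 and Capg of 0.37, which is in the 97.7th, 94.0th and 91.6th percentile of tested genes. Anxa2 had an SD of 0.277, Cd44 of 0.23 and Anxa6 of 0.197, in the 81.0th, 70.9th and 60th percentile. S100a10 and S100a11 had SDs of 0.079 and 0.087, and the median over tested genes was 0.176. Exon GC content was 55.7% for Crip1, 55.1% for Lgals1 and 57.4% for Capg, against 53.7% for Anxa6, 51.5% for Anxa2, 49.5% for each of S100a10 and S100a11 and 46.5% for Cd44. The order did not hold below these 3 genes, as Cd44 had the lowest GC content and a wider spread than Anxa6. In a fit that took the GC slope as covariate, the log2 value changed per unit of slope by 3.37 for Crip1, 2.43 for Lgals1, 2.40 for Capg, 1.10 for Anxa6 and 0.91 for Anxa2. It changed by 0.38 for S100a11, 0.37 for S100a10 and -1.10 for Cd44.

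That fit gave more calls for culture. Beside 4 of 8 without the covariate, 7 of 8 genes differed between unstimulated and fresh cKO cells and 8 of 8 between stimulated and fresh control cells. The calls over all tested genes rose with them in that fit, from 2408 to 4940 (45.4%) and from 2049 to 4466 (41.1%). Lgals1 was lower in culture in all 4 comparisons in that fit, from -0.64 to -1.20 (adjusted p from 1.25e-05 to 0.00241), and Capg was higher, from 0.41 to 0.69 (adjusted p from 0.000108 to 0.00602). The fit gave 0 of 8 for each genotype comparison. The GC slope was estimated from the same libraries and differed between some of the groups compared, so its part in any one difference and that of the condition cannot be told apart where they do not overlap.

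**Figure D4:**
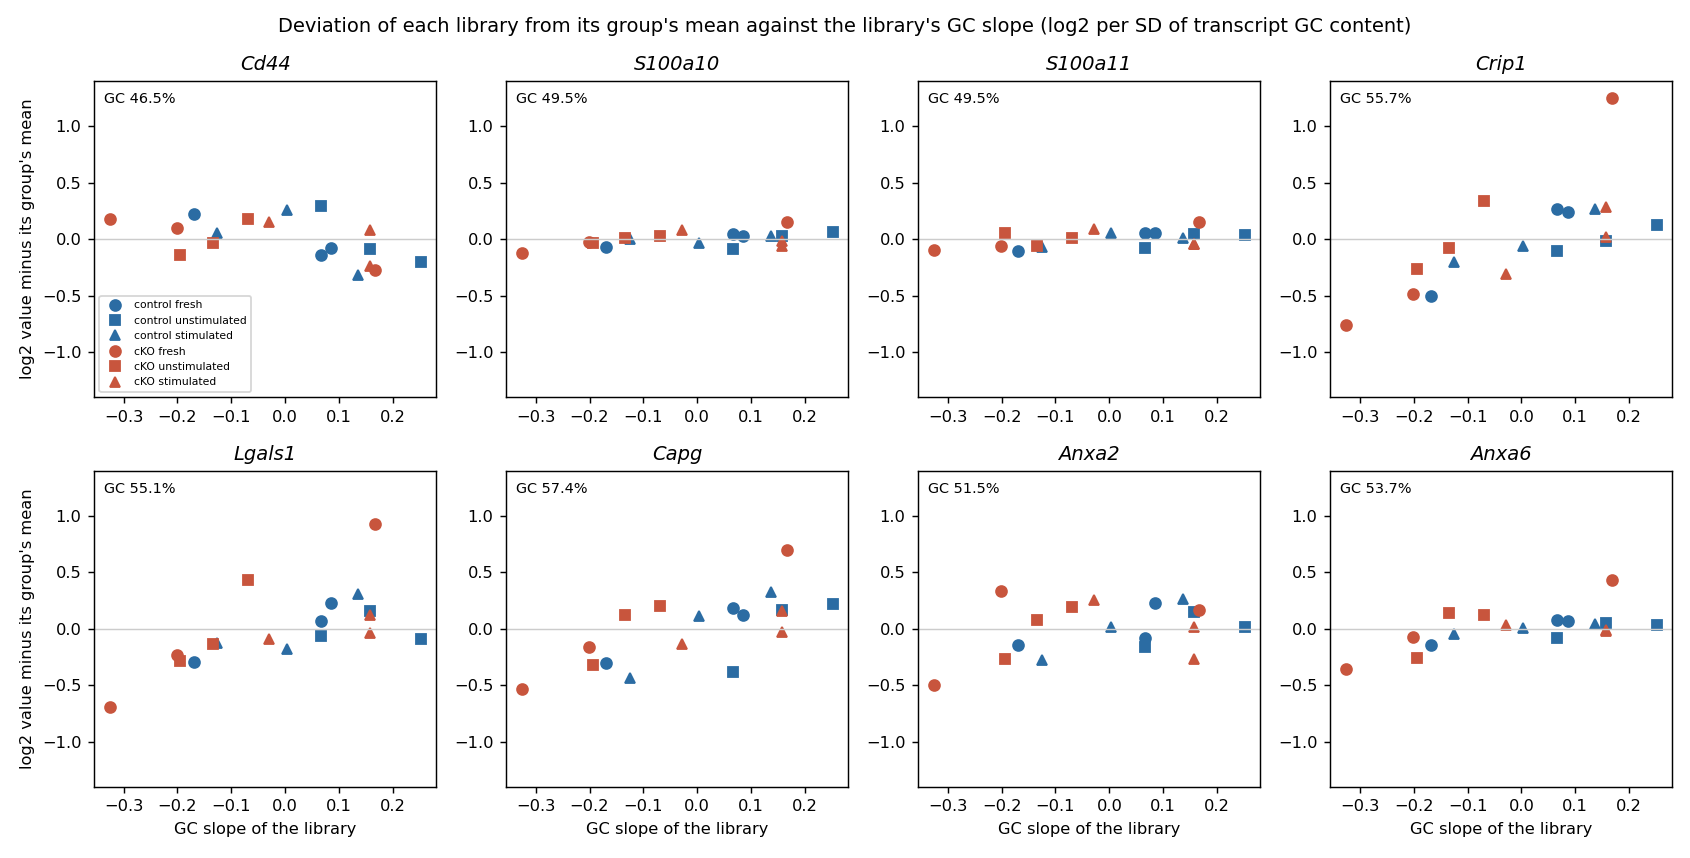
Each library's deviation from its group mean (log2) against the GC slope of the library, for each of the 8 genes, with the exon GC content of the gene in the panel. Blue marks control, red cKO; circles are fresh, squares unstimulated and triangles stimulated. Crip1, Lgals1 and Capg spread with the slope, and S100a10 and S100a11 stay close to 0.

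Among themselves the 8 genes fell into opposed patterns over the 18 libraries, given as descriptions with no test since libraries of a group share their condition. S100a10 and S100a11 had a Pearson r of 0.96. Cd44 had r of -0.96 with S100a10 and -0.91 with S100a11. Lgals1 and Anxa6 had r of 0.87, and Crip1 and Capg 0.74. Over all 10877 tested genes, S100a10 was the closest to S100a11. Closest to S100a10 were Ndrg1, Add1 and Mlec (r from 0.97 to 0.98), and closest to Cd44 were Cd40lg, which encodes the ligand of CD40 on helper T cells, Hoxc4 and Stk17b (r of 0.97 for each). Closest to Crip1 were Abca7 and Zfand2b, to Capg Zswim4, Trp53 and Aldoa, and to Anxa6 Rasgrp2, Ifi27 and Socs3, with r from 0.96 to 0.97. Lgals1 had Rhof, Pdlim4 and Pim3 (r from 0.94 to 0.96), and Anxa2 had no gene above 0.88, which was Nxt1, followed by Anapc2 and Orai3. All of these r were computed without removing the GC slopes of the libraries, and the part of the slopes in them was not tested.

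The families of the 8 genes differed in how many members were measurable. Of 15 other S100 genes and partners listed, 11 had a value and 2 were tested, S100a13 and S100pbp. S100a4 and S100a6, which are usual companions of the list in memory cells, had mean log2 values of 1.23 and 1.76 and were below the minimum level. Of 10 other annexins, 7 had a value and 4 were tested. Anxa1 was at 0.052, below the minimum, while Anxa5 (8.85), Anxa7 (9.42) and Anxa11 (8.84) were expressed. Of 9 other galectin genes and ligands, 7 had a value and 4 were tested, and Lgals3, also a memory-associated gene, was at 0.94. Of 13 other gelsolin and capping genes, 12 had a value and 10 were tested.

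In culture the tested relatives moved in part with the 8 genes. S100pbp, which encodes an S100P-binding protein, rose in all 4 comparisons with fresh cells (0.37, 0.61, 0.46 and 0.30 for unstimulated control and cKO and stimulated control and cKO). The last of these did not pass with libraries centred on their median (adjusted p = 0.0683). Anxa7, an annexin of membrane fusion, rose by 0.56 to 0.60. It was the only other annexin of 4 to pass in control cells. Lgals9, the galectin-9 gene, fell by 0.56 to 0.66 and Lgals3bp, a galectin-3 ligand, by 0.51 to 1.02 on the log2 scale in the same 4 comparisons. S100a13 did not pass in any of the 4. Of the partners of annexin A2 and S100a10, 3 of 5 tested passed in unstimulated control culture, 1 higher and 2 lower. Plaur, the urokinase receptor of the plasminogen system, was the lowest at -1.71 ± 0.25. Of 10 gelsolin and capping genes 1 rose and 1 fell there, and of 10 Cd44 partners 1 rose and 1 fell. None of the 10 Cd44 partners passed in stimulated control culture, while 1 was higher and 2 were lower in stimulated cKO culture. Of the gelsolin and capping genes 0 passed in stimulated control culture, and 3 were higher and 2 lower in stimulated cKO culture. Of all tested genes 29% passed in unstimulated control, 18.8% in stimulated control and 30.3% in stimulated cKO culture.

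Of 33 other memory-associated genes tested, 4 were higher and 9 lower in unstimulated control culture (median -0.22), and 5 higher and 7 lower in cKO culture (median 0.048), beside medians of 0.038 and -0.022 over all tested genes. Of all tested genes 14.9% were higher and 14.1% lower in control, and 10.7% higher and 11.4% lower in cKO culture. Vim, which encodes the intermediate filament vimentin, fell by 1.06 in control and 1.07 in cKO cells. Itgb2, the beta chain of LFA-1, fell by 0.85 and 0.99, while Ifngr1 rose by 0.91 and 0.88 and Tnfrsf4 (OX40) by 0.97 and 0.62. The memory-associated list thus held rises and falls, as did the 8 genes. Of 25 naive-associated genes, all tested, 9 were higher and 4 lower in control, and 7 higher and 4 lower in cKO culture. Igf1r rose by 1.71 and 1.8, and Treml2 fell by 1.37 and 1.22. The sums of the naive markers were 73411 to 75167 in fresh and 89037 to 90448 in unstimulated control libraries. In cKO libraries they were 72841 to 75337 and 87126 to 88716. Those of the memory and effector markers, Cd44 and Anxa6 among them, were 6531 to 6933 and 5891 to 6256 in control libraries. In cKO libraries these overlapped, at 5841 to 7829 and 5620 to 6080. Anxa6 alone had linear values of 2190 to 2549 in fresh and 1654 to 1811 in unstimulated control libraries. The part of cell composition in the differences of the 8 genes was not tested. Of the B cell, myeloid and CD8 T or NK cell markers, Cd79b (mean log2 value 1.34), Csf1r (-0.28) and Cd8a (1.59) were below the minimum level. Cd79a (4.29), Itgam (4.47), Cst3 (7.01), Cd8b1 (6.41) and Prf1 (6.32) were above it. In unstimulated control culture Cd79a rose by 0.82, Itgam fell by 0.92 and Prf1 fell by 0.90 on the log2 scale, and Cst3 and Cd8b1 did not pass. Regulatory T cell markers were above the minimum level for 8 of 8, with 0 higher and 3 lower in unstimulated control culture. In unstimulated cKO culture 0 of them were higher and 2 lower.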

How the data were processed

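The values were log2 normalized expression values, 1 per gene symbol and library, deposited by the authors as a single table. Their log2 base was judged from their range and sums, and how they were normalized, annotated and counted is not stated in these sources. The submitters' processing notes name mm10 as the build and, without roles, the tools DESeq2, Partek 6.6, SAMtools 1.4, HISAT2 2.1.0 and CASAVA 1.8. Per the labels' protocols, libraries were made from 10 ng of RNA with the unstranded TruSeq version 2 kit and sequenced as single reads of 75 bp. Reads of overlapping antisense genes, and of pseudogene copies, could thus have been counted with a gene. As depth is unknown, values carry no counting interval. Libraries with identical values were looked for (0 pairs), and 0 value columns lacked a sample.

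Titles and characteristics gave the groups. Tested were the 10877 genes (71.9%) that reached 10 on the linear scale in 3 or more libraries. A model of 6 group means was fitted with limma 3.58.1 in R 4.3.3, using a trended prior (12 residual degrees of freedom, 15.7 including the prior), two-sided tests and Benjamini-Hochberg adjustment over all tested genes, at a threshold of 0.05. Errors are the model's SE unless given as SD. There were 12 comparisons. The fit was tested on simulated data with independent noise for each gene. Such data hold no GC slopes, so the test does not give the rate of false calls in these libraries. Exon length, GC content and coordinates came from GENCODE M21 on GRCm38, with GC content for 99.3% of tested genes. All 8 genes are named in every comparison. Of the other lists the genes named were among the 6 largest differences past the threshold, or S100a4, S100a6, Anxa1, Anxa5, Creld1 and defining cell type markers. S100a13, Anxa7, Anxa11, Lgals3, Egr2 and Irf4 were also named where a family or the check of stimulation needed them, and for likeness the 3 genes of highest r. Some single genes that these rules would name are not reported here. The genes, lists and alternatives were chosen with earlier results of these data known. The library weights used limma's gene-by-gene estimate, because the default estimate did not converge.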

Additional observations from a re-analysis of the deposited data

How the results depend on the processing

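The falls of Cd44 and the rises of S100a10 against fresh cells passed in both genotypes and both cultures under all 18 alternatives each. The counts of the 8 genes past the threshold moved elsewhere. With library weights, from 0.115 for cKO fresh replicate 3 to 4.11 for control unstimulated replicate 2, 3 passed for stimulated against unstimulated culture in control and 3 in cKO cells, 7 for unstimulated against fresh cKO cells, 8 for stimulated against fresh control cells, 4 for genotype in fresh cells, 5 in unstimulated cells and 4 averaged, and 3 for the interaction with stimulation. Of all tested genes the weights called 24.8%, 53%, 48.4%, 37.9%, 50.7%, 56.3%, 47.6% and 54.3% in these comparisons, in that order. With the GC slope as a covariate 7 passed for unstimulated against fresh cKO cells and 8 for stimulated against fresh control cells. With the GC slope and the replicate block for the 3 runs of consecutive library numbers (not a batch by any label) these were 7 and 8, and 1 passed for stimulated against unstimulated cKO cells. Of all tested genes this last fit called 46%, 41.6% and 1.3% in these comparisons, in that order. The block alone gave the same counts as the fit without it in all 12 comparisons (5, 4, 4 and 5 for culture against fresh cells, 0 elsewhere). With only the compared groups fitted, 1 passed for stimulated against unstimulated cKO cells, 2 for stimulated against fresh cKO cells, 3 for genotype in unstimulated cells and 2 for the interaction with stimulation. Of all 10877 tested genes that setting called 753 for stimulated against fresh cKO cells. The numbers for the other comparisons are not given here, so those counts have no background beside them. With 1 library left out, the count ran from 3 to 4 for unstimulated against fresh control cells, and from 0 to 3 for genotype in fresh cells and averaged over conditions.

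Signs changed only for differences that had not passed. For Cd44, stimulated against unstimulated culture was -0.0077 in control cells with the GC slope, and in cKO cells -0.015 with median-centred libraries, -0.12 with quantile normalization, -0.012 with library weights and from -0.062 to 0.13 with 1 library left out. For Crip1 with the GC slope, and with the GC slope and the replicate block, the differences were -0.22 and -0.27 for unstimulated against fresh control cells, -0.14 and -0.20 for stimulated against fresh cKO cells, 0.11 and 0.20 for genotype in unstimulated cells, and -0.10 and -0.22 for the interaction with stimulation, while the averaged genotype difference was 0.013 with both. Anxa6 gave 0.00098 and 0.13 for genotype in unstimulated cells. With 1 library left out, Crip1 ran from -0.35 to 0.66 for unstimulated, and Lgals1 from -0.69 to 0.12 for stimulated, against fresh cKO cells. Anxa6 also lost its call against fresh cells under quantile normalization in unstimulated control (adjusted p = 0.0541), unstimulated cKO (0.07) and stimulated cKO culture (0.0512), and with only the compared groups fitted in unstimulated cKO (0.2) and stimulated cKO culture (0.129), where Capg had 0.0568.

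The number of all genes past the test was less stable than the calls of Cd44 and S100a10. For genotype in fresh cells it was 1, with 0 to 5512 under other settings and 1193 without cKO fresh replicate 3. For unstimulated culture against fresh cells it was 3151 (2103 to 5469) in control and 2408 (811 to 5265) in cKO cells, for stimulated culture 2049 (1459 to 4529) and 3294 (753 to 7326), for stimulated against unstimulated culture 38 (4 to 2697) and 31 (11 to 5766), for genotype in unstimulated cells 0 (0 to 6125) and averaged 2 (0 to 5173), and for the interaction with stimulation 1 (0 to 5905). The highest number came from library weights in each, except 4529, which came from the GC slope with the replicate block. With 3 libraries a group and unknown depth, small differences of Crip1, Lgals1 and Capg could not be resolved, and neither could some large ones. Crip1 at -0.87 and Capg at -0.79 for genotype in unstimulated cells did not pass. Nor did Lgals1 at -0.89 for stimulated against fresh control cells.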
